A study of Mus musculus with 12 samples.

Results

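Egr1 differed widely among 12 mouse meningeal RNA libraries, and the 4 libraries with the most Egr1 are compared here with the 4 that had the least. These 8 of 12 libraries were chosen by their deposited log2 value of Egr1, so they are not groups of the study, and the Egr1 values that selected them are given as a description with no test. The series title concerns raised levels of DSCR1, lymphatic drainage of the dura and amyloid pathology. All libraries came from meninges of mice aged 20 weeks with the strain label C57BL/6, and the design text names meningeal lymphatic endothelial cells taken by MACS (magnetic sorting of labelled cells) from 3 to 4 mice per strain. The titles form 3 groups of 4 libraries, called AD_TG, AD_B6 and SJL_B6. What these names stand for is not written out, and the labels give no allele, no transgene promoter and no treatment for any group, so the names are used as titles only. It is not stated if libraries of the same title group were separate mice or pools, and the p-values below then measure only the spread between these libraries, which may be technical.

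Egr1 encodes a zinc-finger transcription factor of the immediate early response, the set of genes that cells switch on within minutes of a growth factor, stretch, injury or stress, without needing new protein. The signal runs through kinases of the ERK and p38 pathways to factors already bound at the promoters, mainly serum response factor with its ELK partners and CREB. The first products are themselves transcription factors (the FOS and JUN proteins of AP-1, the EGR, NR4A and KLF families), and they are followed by inhibitors that close the response, such as DUSP phosphatases, ZFP36 and NAB proteins. Tissue digestion and cell sorting are known to start the same response, often together with heat shock genes.

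Egr1 had log2 values of 13.82 in AD_TG_2, 12.84 in AD_B6_2, 11.40 in AD_B6_4 and 11.38 in AD_TG_4, the 4 highest libraries. The 4 lowest were AD_B6_1 at 10.40, SJL_B6_1 at 10.26, AD_B6_3 at 9.99 and AD_TG_1 at 9.47. Values below are listed in this order of libraries. The 4 libraries between them (AD_TG_3, SJL_B6_4, SJL_B6_2 and SJL_B6_3) lay from 10.65 to 10.89, so that the last library inside the upper limit stood 0.49 above the first one outside it, and the gap at the lower limit was 0.25. The widest of these steps, 1.44, lay inside the highest class, between AD_B6_2 and AD_B6_4. Egr1 was abundant throughout, with a mean above that of 98.1% of symbols with reads.

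**Figure D1:**
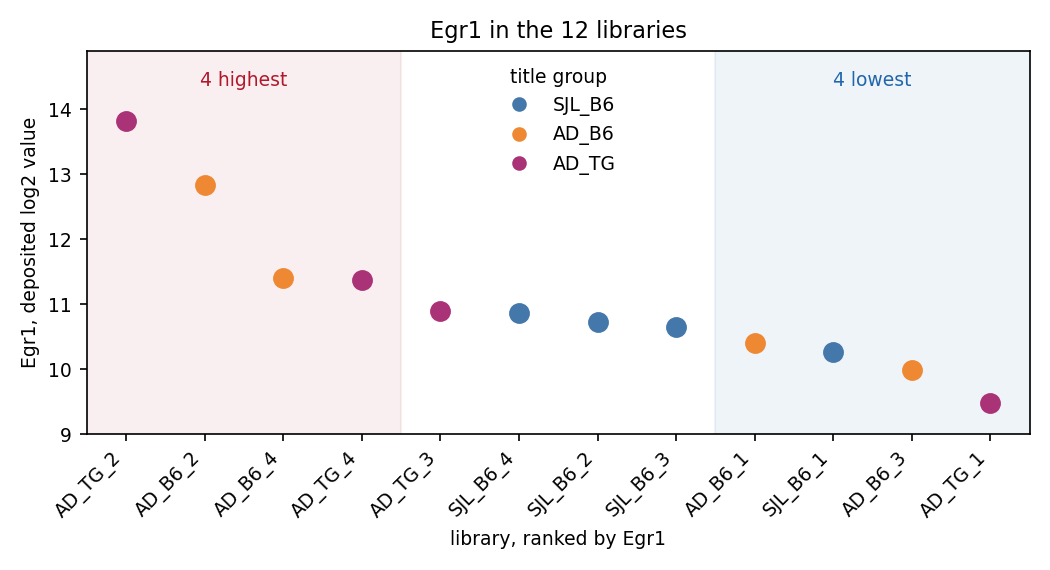
Egr1 as deposited log2 value (vertical axis) in each of the 12 libraries, ranked from highest to lowest (horizontal axis), 1 point per library, coloured by title group. The 4 highest span 11.38 to 13.82 and the 4 lowest 9.47 to 10.40, with 2 libraries, AD_TG_2 and AD_B6_2, well above the rest.

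The classes cut across the title groups unevenly. AD_B6 gave 2 of the highest and 2 of the lowest libraries, AD_TG gave 2 of the highest and 1 of the lowest, and SJL_B6 gave 0 of the highest and 1 of the lowest. All 4 highest libraries thus carry an AD title, and all have the replicate number 2 or 4, while the lowest have 1 or 3; the AD title, the replicate number and Egr1 cannot be told apart in the highest class. Egr1 averaged 10.62 ± 0.26 (SD, n = 4) in SJL_B6, 11.16 ± 1.27 (SD, n = 4) in AD_B6 and 11.39 ± 1.81 (SD, n = 4) in AD_TG, so its spread lay within the AD titles. Depth, estimated from the steps between low values, was 5469740 to 9315690 assigned reads in the highest class and 4148970 to 8907590 in the lowest (two-sided exact permutation test, p = 0.371, adjusted p = 0.971 over 3 library measures, smallest possible p 0.0286). AD_B6_3, among the lowest, stood apart with 8748 genes with reads against 10438 to 12217 in the other 11 libraries. Markers of the sorted cell type took a small share of the linear total. Prox1, the defining factor of lymphatic endothelium, was at 8.38 in SJL_B6_1, 0.88 in SJL_B6_4 and below 1 read in the other libraries. The 15 lymphatic endothelial markers summed to at most 0.0860% of the linear total of any of the 12 libraries. The choroid plexus markers, led by Ttr (transthyretin), took 0.297% to 11.2%. How such shares relate to amounts of cells was not tested.

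No tested gene passed the test between the classes, and Egr1 was not among the genes tested. In limma, fitted to 11954 genes over all 12 libraries, 0 genes (0%) had a Benjamini-Hochberg adjusted p below 0.05, and the lowest adjusted p was 0.840. The 95% confidence interval of the difference reached a median of 3.86 log2 units to either side over all 11954 genes. That median was 0.93 over the 966 genes with the highest mean log2 values. The count of 0 therefore does not show that genes were alike in the classes. At an unadjusted p below 0.05 there were 342 genes higher and 365 lower in the Egr1-high libraries. Every highest library lay above every lowest library for 144 genes (1.2%) and below for 185 genes (1.55%). Over all genes the median difference was 0.07 on the log2 scale, with 6193 genes higher and 5761 lower. All differences that follow are therefore values that did not pass the adjusted threshold, given as highest minus lowest means of the deposited log2 values with their standard errors (SE) and unadjusted limma p.

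Immediate early genes other than Egr1 mostly stood higher where Egr1 was high. Of 55 listed genes, 47 had enough signal to be tested; Fosl1, Egr4, Myc, Npas4, Dusp2, Dusp4, Dusp5 and Arc did not. The difference was positive for 39 of the 47 and negative for 8, with a median of 1.2 against 0.07 over all genes. 6 genes were higher in every highest library than in any lowest library (Fosb, Jun, Nr4a2, Btg2, Zfp36 and Sgk1), and 0 were lower in all. The shares over all genes were 1.2% higher and 1.55% lower. Limited to genes with reads in all 12 libraries, 26 of 31 early genes were higher with a smaller median of 0.79, beside 0.05 over all such genes. In 25 of the 47 the mean of the 4 libraries between lay between the 2 class means, compared with 4194 of 11954 for all genes. Averaged over the 47 genes, the log2 value was 9.36 in AD_TG_2, 8.23 in AD_B6_2, 7.22 in AD_B6_4 and 9.08 in AD_TG_4, 7.67 to 7.95 in the libraries between, and 7.15, 6.66, 6.43 and 7.44 in the lowest. AD_B6_4 thus lay inside the range of the lowest class, and the other 3 highest libraries lay above all 8 remaining ones. In bulk RNA of this kind, fewer responding cells and less of the transcript per cell cannot be told apart.

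**Figure D2:**
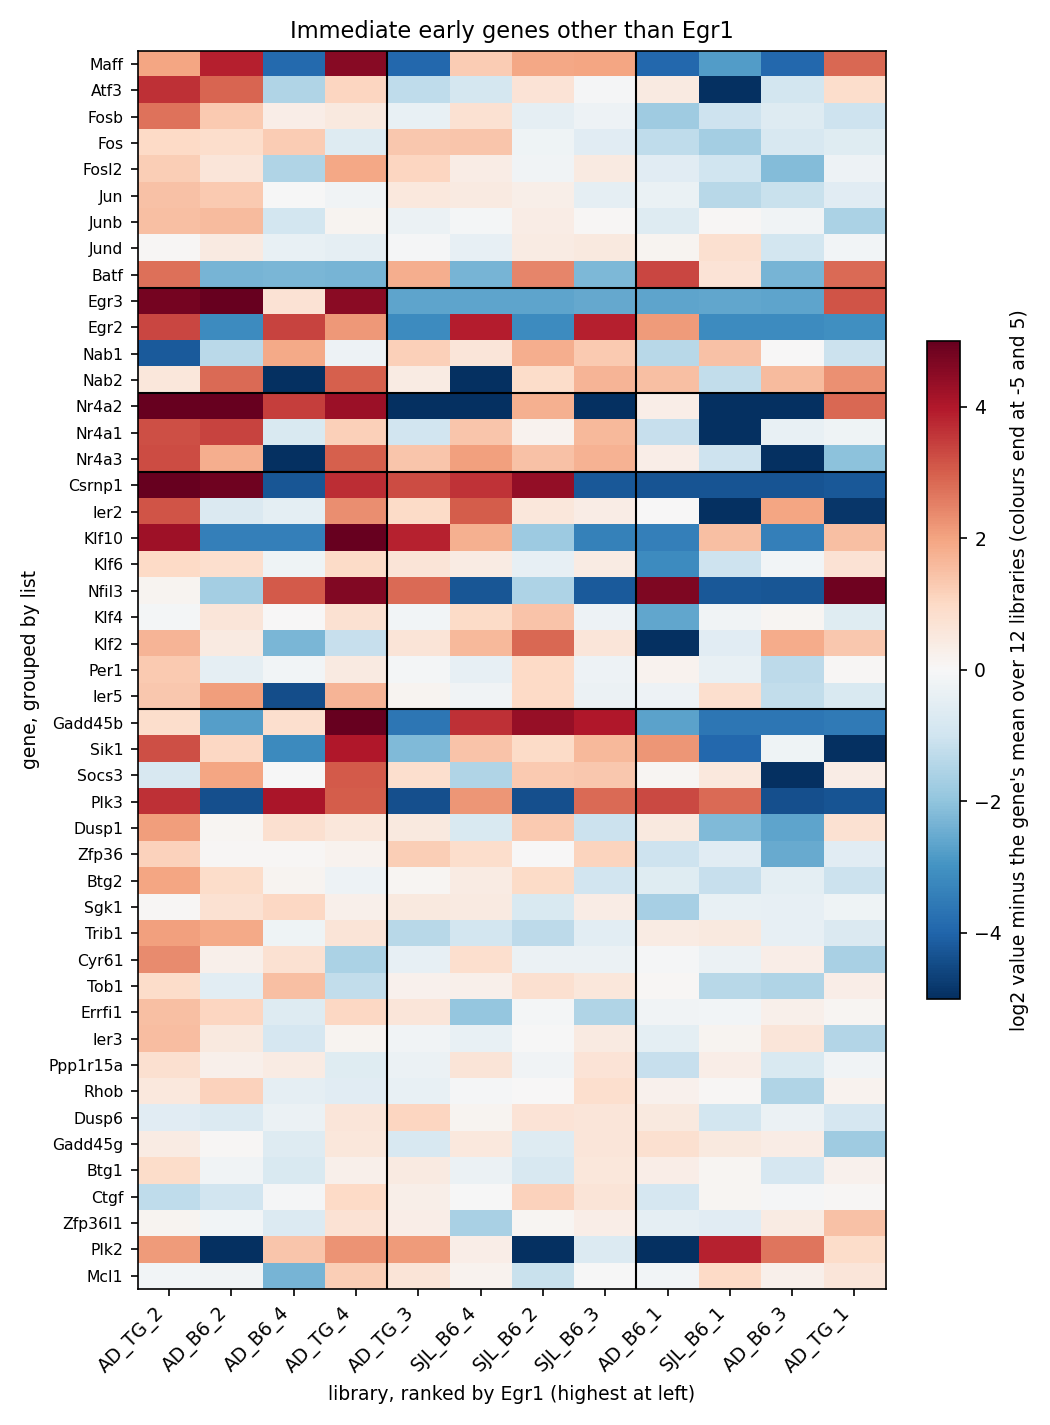
Heat map of the 47 tested immediate early genes other than Egr1 (rows, grouped by list from AP-1 factors at the top to effectors and feedback at the bottom) across the 12 libraries in order of Egr1 (columns; black lines part the highest, middle and lowest 4). Colour is the log2 value minus the mean of that gene over the 12 libraries in log2 units. AD_TG_2 and AD_TG_4 have the most red, and AD_B6_4, in the third column, is mixed like the lowest libraries.

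The AP-1 list gave 7 of 9 tested genes higher, with a median of 1.58. Jun, the main partner of FOS proteins, was at 12.68, 12.52, 11.19 and 11.05 in the highest libraries and at 10.88, 9.80, 10.09 and 10.63 in the lowest. The classes did not overlap, although AD_TG_4 exceeded AD_B6_1 only slightly, and the difference was 1.51 (SE 0.42, unadjusted p = 0.00129). Fosb, a FOS family member, ran 10.64, 9.21, 8.24 and 8.38 against 6.14, 6.86, 7.26 and 6.88, again without overlap, a difference of 2.33 (SE 0.96, unadjusted p = 0.0228). Fos itself was at 10.89, 10.76, 11.16 and 9.23 against 8.62, 8.18, 9.08 and 9.30. Here AD_TG_4 fell inside the lowest class, while 2 of the libraries between, AD_TG_3 and SJL_B6_4, reached 11.23 and 11.26, above every highest library, and the difference was 1.71 (SE 0.59).

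Other AP-1 members behaved less evenly. Junb, a JUN protein with weaker activating capacity, was at 12.71 and 12.78 in AD_TG_2 and AD_B6_2 but at 10.29 in AD_B6_4, below 3 of the lowest libraries, and differed by 1.17 (SE 0.48). Atf3, a stress-induced factor, reached 10.46 and 9.70 in the same top libraries and 5.28 and 7.86 in the other highest ones, against 1.76 to 7.66 in the lowest. Jund, which is made constitutively in most cells, differed by -0.04, with a 95% confidence interval of -0.81 to 0.72.

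All 3 NR4A genes, which encode orphan nuclear receptors induced by many acute stimuli, stood higher, with a median of 4.08. Nr4a1 was at 11.89, 12.05, 7.89 and 9.85 against 7.52, 1.14, 8.28 and 8.44. AD_B6_4 overlapped the lowest class, and SJL_B6_1 stood far below the other 3 lowest libraries; the difference was 4.08 (SE 1.23, unadjusted p = 0.00264). Without SJL_B6_1 the median of the NR4A genes was 3.11. Nr4a2 was at 11.81, 11.66, 8.62 and 9.44 in the highest libraries, at 8.03 and 5.53 in AD_TG_1 and AD_B6_1, and below 1 read in SJL_B6_1 and AD_B6_3. It was also below 1 read in 3 of the 4 libraries between, so that its difference of 6.99 (SE 2.45) rests partly on libraries with no reads. Such gaps were common, because 1 read was worth between 0.698 and 1.76 linear units in these libraries and values above 5 next to values of 0 are many reads next to none.

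The EGR family and its co-repressors were divided: 2 of 4 tested genes were higher and 2 lower. Egr3, a close relative of Egr1, was at 7.41, 7.84, 3.35 and 7.14 in the highest libraries and below 1 read in 7 of the other 8, the exception being AD_TG_1 at 5.79. Egr2, which shares the DNA site of Egr1, was at 6.51, 6.53 and 5.33 in AD_TG_2, AD_B6_4 and AD_TG_4 and below 1 read in AD_B6_2, the library with the second most Egr1. SJL_B6_4 and SJL_B6_3, both between the classes, exceeded every highest library at 7.08 and 7.04, and AD_B6_1 among the lowest was at 5.27. Its difference of 3.25 had a 95% confidence interval of -1.70 to 8.21. Nab1 and Nab2, the proteins that bind EGR factors and dampen them, differed by -0.73 (SE 1.18) and -1.11 (SE 2.02), well within their spread.

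KLF and other early factors were higher for 9 of 9 tested genes, with a median of 1.29, which was 0.83 without AD_B6_1 and 2.08 without AD_TG_1 (5 of 9 when libraries were ranked by Egr1 after centring). Klf6, a zinc-finger factor induced by injury, was at 11.03, 10.88, 9.80 and 10.98 against 6.89, 9.01, 9.89 and 10.76. The classes overlapped through AD_B6_4, and the difference was 1.54 (SE 0.63). Csrnp1, a nuclear protein induced by growth factors, was at 10.21, 9.18 and 8.0 in 3 highest libraries and below 1 read in AD_B6_4 and in all 4 lowest. Klf4 differed by 1.13 (SE 0.61), Ier2 by 3.35 (SE 1.91) and Klf2, a factor of endothelial shear response, by 0.79 (SE 1.41). Myc was too sparse to test.

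Early effectors and feedback genes were higher for 18 of 22, with a median of 0.76, or 0.46 without AD_TG_2. Btg2, an antiproliferative gene that is among the quickest to respond, was at 12.70, 11.63, 10.85 and 10.45 against 10.11, 9.54, 10.23 and 9.65. Its classes did not overlap and the difference was 1.52 (SE 0.49, unadjusted p = 0.00460). Zfp36, which binds AU-rich messages and speeds their decay, was at 9.54, 8.43, 8.41 and 8.55 against 7.34, 7.81, 5.87 and 7.82, also apart. Its difference was 1.52 (SE 0.83). Sgk1, a serum-induced and glucocorticoid-induced kinase, was at 10.13, 10.85, 11.14 and 10.35 against 8.42, 9.70, 9.68 and 9.88. This was the only one of the 6 genes standing apart that was lowest, among the highest libraries, in AD_TG_2, and it differed by 1.2 (SE 0.51).

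Dusp1, the phosphatase that switches MAP kinases off, was at 11.65, 9.66, 10.38 and 10.14 against 10.07, 7.37, 6.95 and 10.32, with overlap and a difference of 1.78 (SE 0.76). Dusp6, the ERK-specific phosphatase, differed by 0.16, with a 95% confidence interval of -1.26 to 1.58. Cyr61, a matrix protein that is a common target of serum response factor and YAP, was at 11.18 in AD_TG_2 and 7.23 to 9.57 in the other highest libraries, against 7.17 to 9.12. Ier3 differed by 0.65 (SE 0.76).

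Summed over the list of 55 genes, the immediate early genes took 0.383% to 0.960% of the linear total in the highest libraries, 0.471% to 0.567% in those between and 0.321% to 0.367% in the lowest. The highest and lowest classes did not overlap, but the library with the smallest share in the highest class lay below all 4 libraries between. Leaving out each of the 8 libraries in turn gave medians between 1.02 and 1.5 with 38 to 42 of 47 genes higher. Without AD_TG_2 and AD_B6_2, a choice made after seeing the data, the median was 0.94 with 36 of 47 higher. When libraries were instead ranked by Egr1 after subtracting their own mean, both classes changed: AD_B6_3 took the place of AD_TG_4 in the highest class, and SJL_B6_3 that of AD_B6_3 in the lowest. The median of the early genes then became 0.26 with 27 of 47 higher, beside -0.44 for all genes. Within them, 5 of 9 AP-1 genes were higher (median 1.04) and 2 of 3 NR4A genes (median 3.19). For KLF and other factors it was 5 of 9 (median 1.06), and for effectors 13 of 22 (median 0.23). The EGR and NAB list again had 2 of 4 higher, but its median turned from 1.26 to -0.41.

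The promoters of the tested early genes were searched for letters that these pathways are known to read. Sequences are shown only for genes whose classes stood apart and whose window held a match. Fosb, Zfp36 and Btg2 were thus picked after the search. RefSeq sequence of assembly GRCm38.p6 was matched for 41 of the 47 genes, using the 250 bases before each start. The EGR site, spelled GCGTGGGCG or GCGGGGGCG and searched on both strands, was found in 9 of 41 (21.95%), against 3.48% of 27025 genes of the RefSeq table. The cAMP response element TGACGTCA was in 6 of 41 (14.6%) against 1.77%, the CArG box read by serum response factor in 2 of 41 (4.88%) against 1.62%, and the AP-1 site TGACTCA in 1 of 41 (2.44%) against 5.16%. The early gene windows had a median GC content of 64.8% against 52%, and the part of base composition in these shares was not tested. The 27025 genes were not limited to genes with enough signal here, as the 41 were, and the part of that difference was not tested either. The windows of Fosb (chr7:19310046-19310295, minus strand), Zfp36 (chr7:28379229-28379478, minus strand) and Btg2 (chr1:134079156-134079405, minus strand) are shown from 5′ to 3′ along the gene, ending at the base before the start, with matches in capitals. In Fosb the capitals are the EGR site, in Zfp36 the EGR site and then the CArG box, and in Btg2 the cAMP response element. A match describes letters only and does not show that a factor bound there.
Fosb: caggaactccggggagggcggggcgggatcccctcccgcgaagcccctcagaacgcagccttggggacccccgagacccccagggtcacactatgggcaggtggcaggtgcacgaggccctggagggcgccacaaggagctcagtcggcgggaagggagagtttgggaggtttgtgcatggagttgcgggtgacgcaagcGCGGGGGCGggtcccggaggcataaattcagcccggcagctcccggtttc
Zfp36: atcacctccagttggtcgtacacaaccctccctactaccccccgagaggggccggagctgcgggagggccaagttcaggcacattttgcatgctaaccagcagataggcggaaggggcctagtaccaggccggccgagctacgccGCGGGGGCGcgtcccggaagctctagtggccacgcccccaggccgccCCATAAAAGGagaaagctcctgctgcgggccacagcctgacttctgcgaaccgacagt
Btg2: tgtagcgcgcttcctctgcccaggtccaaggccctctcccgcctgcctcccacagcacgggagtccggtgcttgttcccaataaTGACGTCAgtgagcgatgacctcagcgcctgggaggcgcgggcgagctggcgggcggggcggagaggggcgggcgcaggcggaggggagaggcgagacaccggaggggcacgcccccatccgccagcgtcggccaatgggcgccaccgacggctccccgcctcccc
The Fosb match ends 42 bases before the start, and the Zfp36 matches end 97 and 49 bases before it. The Btg2 match lies farther out, ending 159 bases before the start. Jun, Nr4a2 and Sgk1, which also stood apart, held none of the 4 motifs in this window.

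Heat shock genes and chaperones also stood higher in the Egr1-high libraries, for 14 of 16 genes with a median of 0.85 against 0.07 over all genes. 5 of the 16 stood apart upward (Hspa1a, Hspa1b, Hspa8, Hsp90aa1 and Hsp90ab1) and 0 downward. Over all 11954 genes, 144 (1.2%) stood apart upward and 185 (1.55%) downward. Hsp90ab1, the constitutive cytosolic HSP90, was at 14.47, 14.27, 13.89 and 14.22 against 13.65, 13.79, 13.23 and 13.41, a difference of 0.69 (SE 0.19, unadjusted p = 0.00142). Hsp90aa1, the inducible form, was at 13.61, 13.26, 12.57 and 12.69 against 12.57, 12.07, 11.64 and 12.08. The classes met at AD_B6_4 and AD_B6_1, and the difference was 0.94 (SE 0.29).

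Hspa1a, an inducible HSP70, was at 10.49, 11.55, 9.17 and 10.18 against 9.07, 8.5, 7.45 and 9.05, a difference of 1.83 (SE 0.66). Hspa1b, its near-identical neighbour, differed by 1.5 (SE 0.66), and reads of the pair may have been split or shared in counting. AD_B6_2, not AD_TG_2, was the highest library for both, and also for Dnajb1, an HSP40 co-chaperone that differed by 1.44 (SE 0.84). Hspa8, the constitutive HSC70, differed by 0.74 (SE 0.39). Hsf1, the factor that drives this response, differed by -0.29 (SE 2.16).

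**Figure D3:**
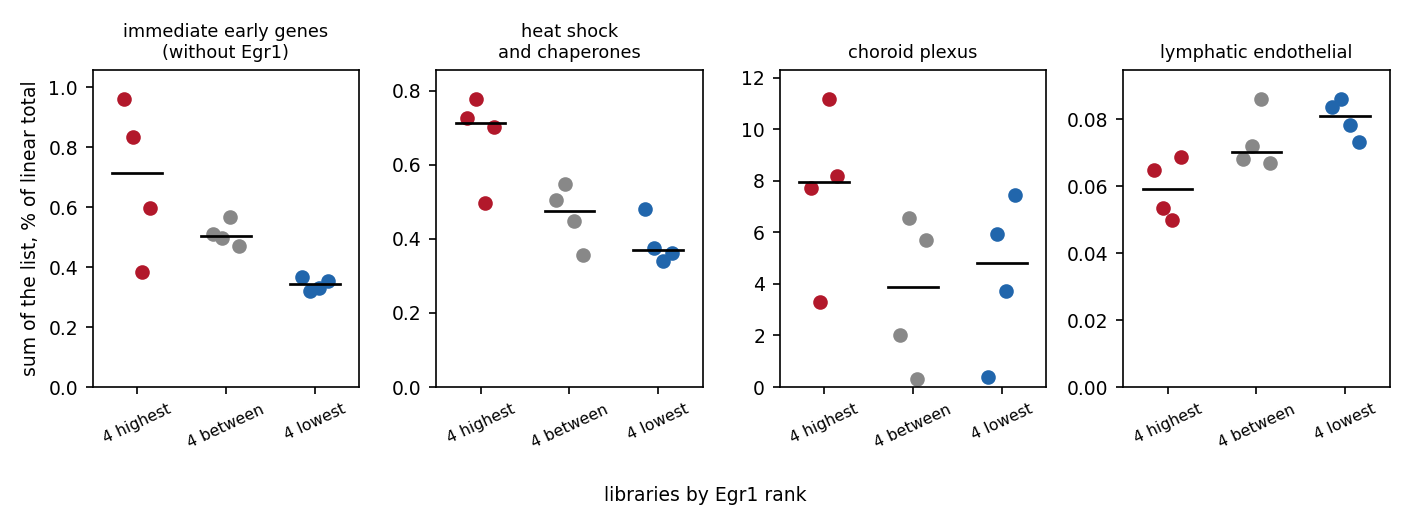
Sum of each of 4 gene lists as percent of the linear total (vertical axes, each starting at 0) in the 4 libraries highest in Egr1, the 4 between and the 4 lowest (horizontal axis). Points are libraries and bars are medians. Immediate early genes span 0.383% to 0.960% in the highest and 0.321% to 0.367% in the lowest libraries; the choroid plexus classes overlap.

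The chaperone list summed to 0.498% to 0.778% of the linear total in the highest libraries and 0.340% to 0.482% in the lowest. In the libraries between it took 0.357% to 0.548%, and SJL_B6_4 (0.548%) and AD_TG_3 (0.505%) exceeded AD_B6_4 (0.498%). For 8 of the 16 genes the mean of the libraries between lay between the class means. The median of the list lay between 0.67 and 1.07 when single libraries were left out. It was 0.86 without AD_TG_2 and AD_B6_2, with 14 of 16 higher. Ranked by centred Egr1, it was 0.30 with 11 of 16 higher. Genes of NF-kappa B and early cytokines, a branch of acute inflammation, were higher for 13 of 17 with a median of 1.21, and 0 stood apart in either direction. That median was 0.34 without AD_TG_4 and 0.68 without AD_B6_3, and ranking by centred Egr1 turned it to -0.34 with 7 of 17 higher. Nfkbia, the inhibitor that NF-kappa B induces itself, differed by 0.33 (SE 0.38), and Il1b, the cytokine interleukin 1 beta, by 1.21 (SE 0.95). Ptgs2, the inducible cyclooxygenase, was at 5.71, 5.63, 7.79 and 1.39 against 0.00 to 1.49, a difference of 4.57 (SE 2.16) that AD_TG_4 did not share.

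Genes on either side of Egr1 in the pathway were divided more evenly between higher and lower. Those upstream, the kinases, SRF and the ELK factors, were higher for 8 of 20 with a median of -0.35. Srf differed by 0.11 (SE 1.61) and Mapk3, which encodes ERK1, by -0.21 (SE 0.46). Genes often reported as EGR1 targets were higher for 5 of 11 with a median of -0.01. Among these, Thbs1, the matrix glycoprotein thrombospondin 1, ran downward at 0.00, 0.00, 7.07 and 10.29 against 10.17, 9.77, 10.94 and 8.01, a difference of -5.38 (SE 1.63). AD_TG_4 did not follow AD_TG_2 and AD_B6_2 for Thbs1. When single libraries were left out, the upstream median lay from -0.74 to -0.18 and that of the targets from -0.44 to 0.24.

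Other stress programmes were near even. The integrated stress and unfolded protein response had 6 of 12 genes higher (median -0.04), the glucocorticoid response 6 of 12 (median 0.10), glycolysis and hypoxia 8 of 13 (median 0.15) and the interferon response 8 of 14 (median 0.55). Cytosolic ribosomal proteins were higher for 12 of 22 (median 0.12). Leaving out single libraries changed the sign of the first 4 of these medians. Malat1, a nuclear RNA whose share can move with RNA quality, was at 16.10, 16.48, 15.22 and 16.57 against 16.34, 16.43, 17.15 and 17.05, a difference of -0.64 (SE 0.24, unadjusted p = 0.0119). The classes overlapped, and its part in the early gene values was not tested.

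Over the whole table, counting only genes whose log2 values averaged at least 5, the smallest unadjusted p in the higher direction belonged to Klhl7, Atp6v1a, Jun, Hsp90ab1, Atp5f1, Mcf2l, Tdrd7 and Nr4a1. Jun, Nr4a1 and Hsp90ab1 are members of the lists above. Atp6v1a, the catalytic subunit of the proton pump that acidifies lysosomes, was at 12.37, 11.68, 12.15 and 11.88 against 10.93, 10.93, 10.68 and 10.62. Its classes were separated by more than their own spread, with a difference of 1.23 (SE 0.33, unadjusted p = 0.00108). Klhl7, a substrate adaptor of a ubiquitin ligase, was at 8.22, 10.54, 9.85 and 7.42 against 6.91, 2.19, 0.00 and 2.19, a difference of 6.19 (SE 1.67). Atp5f1, a subunit of mitochondrial ATP synthase, differed by 2.07 (SE 0.59) with the classes apart. Mcf2l, a guanine nucleotide exchange factor, differed by 2.01 (SE 0.58) and Tdrd7, a Tudor domain protein of RNA granules, by 3.20 (SE 0.95), both with overlap.

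In the lower direction, by the same rule, they were Sh3pxd2a, Gpx3, Gatad2b, H19, Gstm1, Tial1, Thbs1 and Fxyd5. Sh3pxd2a, a scaffold of the podosomes with which cells degrade matrix, was at 9.0, 9.60, 9.01 and 11.06 against 12.02, 11.32, 11.74 and 11.48, a difference of -1.97 (SE 0.45, unadjusted p = 0.000165). The classes stood apart, with AD_TG_4 close to the lowest libraries. Gpx3, the secreted glutathione peroxidase, was at 8.76, 10.22, 10.02 and 10.62 against 11.09, 12.26, 12.46 and 11.90, a difference of -2.02 (SE 0.46, unadjusted p = 0.000178), also apart. Gstm1, a glutathione transferase, differed by -1.13 (SE 0.33) with the classes apart.

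Gatad2b, a subunit of the NuRD chromatin complex, was below 1 read in all 4 highest libraries and at 5.23, 9.05, 7.81 and 8.51 in the lowest. H19, an imprinted non-coding RNA, was at 11.74, 11.87, 11.99 and 13.20 against 12.63, 13.39, 13.29 and 14.22, a difference of -1.19 (SE 0.34). Tial1, an RNA-binding protein of stress granules, differed by -6.16 (SE 1.82), with 9.64 in AD_TG_4 against at most 2.12 in the other highest libraries. Fxyd5, a regulator of the sodium pump, differed by -1.74 (SE 0.53). With Egr1 as a continuous predictor over the 12 libraries, limma called 3 genes, Nampt, Slit2 and Thbs1, all lower with more Egr1 (adjusted p = 0.0485, 0.0466 and 0.0365; the 24 alternative fits had lowest adjusted p-values from 8.13e-06 to 0.935). All 3 had their smallest value in AD_TG_2, a value that Thbs1 shared with AD_B6_2 (0 in both). Slit2 was at 0 in AD_TG_2 and at 8.685 to 10.337 in every other library. Nampt was at 2.28 in AD_TG_2, 5.24 in AD_B6_2 and 7.11 to 10.16 in the rest. These calls thus lean on the libraries with the most Egr1.

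**Figure D4:**
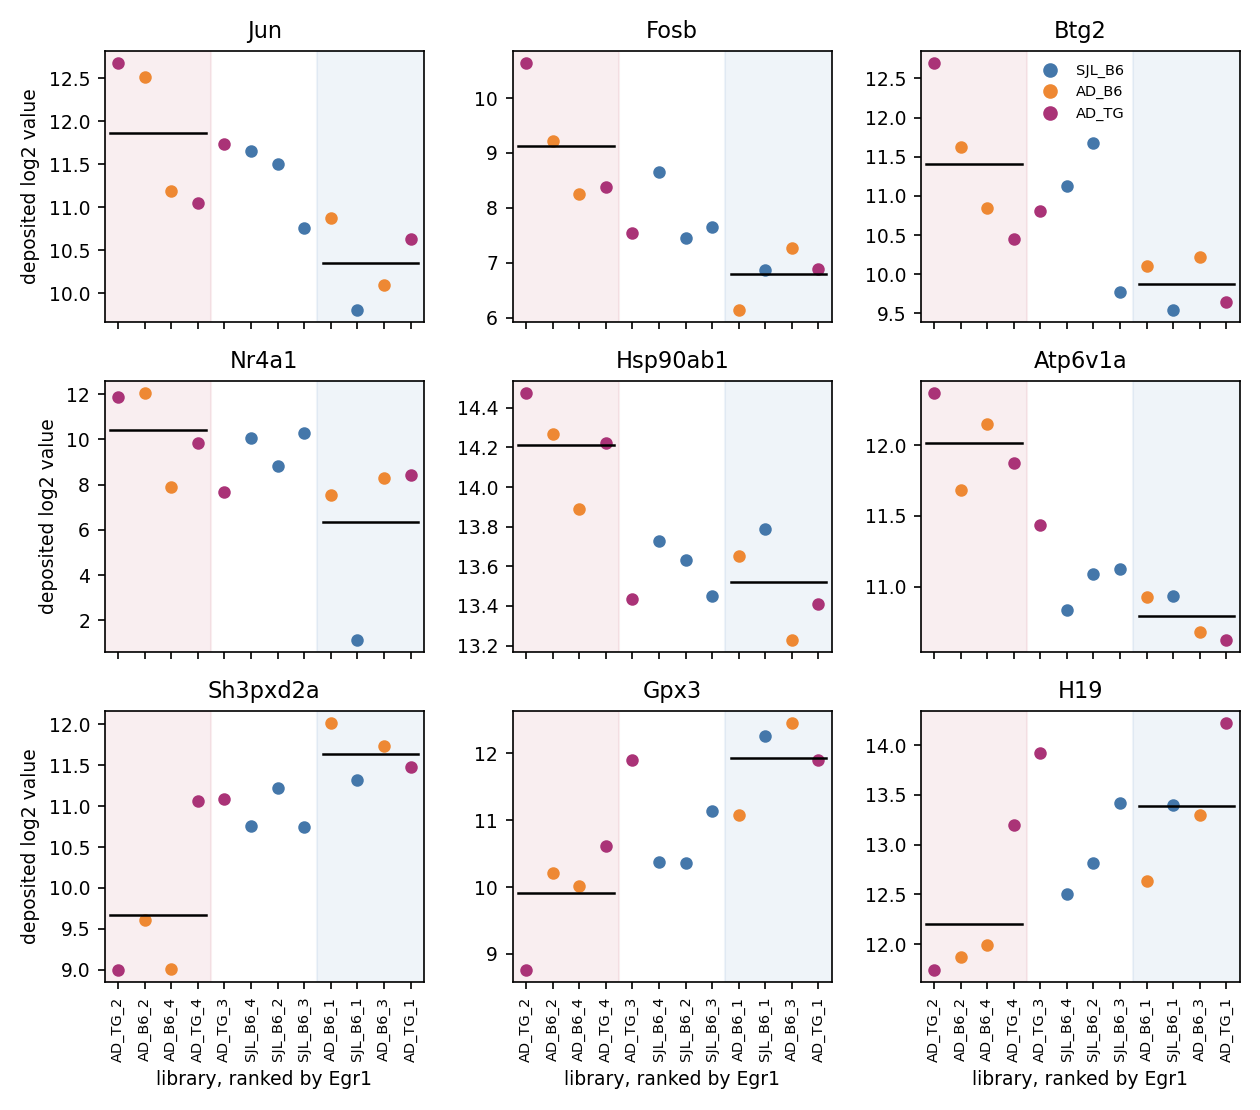
Deposited log2 values (vertical axes) of 9 genes in the 12 libraries ranked by Egr1 (horizontal axis), coloured by title group; lines are the means of the 4 highest and 4 lowest libraries. Jun, Fosb, Btg2, Hsp90ab1 and Atp6v1a have no overlap between these classes upward, Sh3pxd2a and Gpx3 none downward, and Nr4a1 and H19 overlap.

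Among genes with reads in all 12 libraries, the 8 whose values followed Egr1 most closely were picked by Pearson's r, so their r is a description. They were Fosb (r = 0.91), Nrep (0.88), Hsp90aa1 (0.88), Hsp90ab1 (0.87), Atp6v1a (0.85), Cntn1 (0.84), Jun (0.84) and Btg2 (0.84). Their Spearman's rank correlation ran from 0.62 for Cntn1 to 0.90 for Atp6v1a. AD_TG_2 and AD_B6_2 carry much of this, and without them the r of the 8 genes was 0.70, 0.69, 0.60, 0.69, 0.86, 0.32, 0.59 and 0.57 in the same order. Atp6v1a was the only one of the 8 whose r was not smaller without them. Nrep, a small protein first described in regenerating neurons, was at 11.14, 10.40, 10.15 and 9.55 against 9.02, 9.38, 9.64 and 8.72. Cntn1 encodes contactin 1, an adhesion protein of neurons, and differed by 0.90 (SE 0.45).

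Markers of several cell types differed between the same libraries. Choroid plexus markers were higher for 9 of 9 (median 1.33), and their sum was 3.29% to 11.2% in the highest libraries against 0.388% to 7.43% in the lowest. AD_B6_1 was the low extreme, with Ttr at 13.92 against 17.48 to 18.63 in the other 3 lowest libraries, and without it the median was 0.44. Haemoglobin and other erythroid genes were higher for 6 of 6 (median 1.55, or 0.84 without AD_B6_4, whose Hba-a1 reached 15.09). Hba-a1 and Hba-a2 are near-identical copies, so their counts are uncertain one by one.

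Meningeal fibroblast markers were lower for 9 of 11 (median -0.86), and Foxc1, a factor of meningeal mesenchyme, stood apart downward at 4.24, 9.06, 8.07 and 8.44 against 9.29, 9.39, 11.17 and 9.18. The fibroblast median was -0.20 without AD_B6_3, -0.54 without AD_B6_2 and -0.02 without AD_TG_2 and AD_B6_2. Pan-endothelial markers were lower for 10 of 15 (median -1.71, or 0.01 without AD_TG_2 and AD_B6_2), and macrophage markers for 13 of 18 (median -0.37). Only 3 pan-endothelial markers had reads in all 12 libraries, and their median was -0.17. For the 15, the pan-endothelial median was -0.86 when 10 was added to the linear values before taking log2. With the replicate number as a block it was 0.11, with 9 of 15 higher. Leaving out single libraries gave pan-endothelial medians from -1.75 to -0.64, the last without AD_B6_3 and the next, -0.96, without SJL_B6_1, and -1.1 without AD_TG_2 or AD_B6_2; macrophage medians ran from -0.64 without AD_TG_4 and -0.56 without AD_B6_1 to -0.11 without AD_B6_3. Lymphatic endothelial markers were lower for 6 of 10 (median -0.57, or -0.08 without AD_B6_4, -0.17 without SJL_B6_1 and -0.19 without AD_B6_2), with a summed share of 0.0499% to 0.0687% in the highest libraries and 0.0730% to 0.0860% in the lowest. Astrocyte markers were lower for 7 of 9 (median -0.98), although the 1 marker that stood apart did so upward. Their median was -0.52 without AD_TG_2 and AD_B6_2 (4 of 9 higher) and -0.75 by centred Egr1 (1 of 9 higher). With the replicate number as a block it was 1.02 (5 of 9 higher). Ranked by centred Egr1, the median was 0.86 for choroid plexus (6 of 9 higher), 0.62 for erythroid, -0.07 for fibroblast, -0.71 for pan-endothelial and -0.89 for lymphatic endothelial markers. The part of these markers in the early gene values was not tested.

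**Figure D5:**
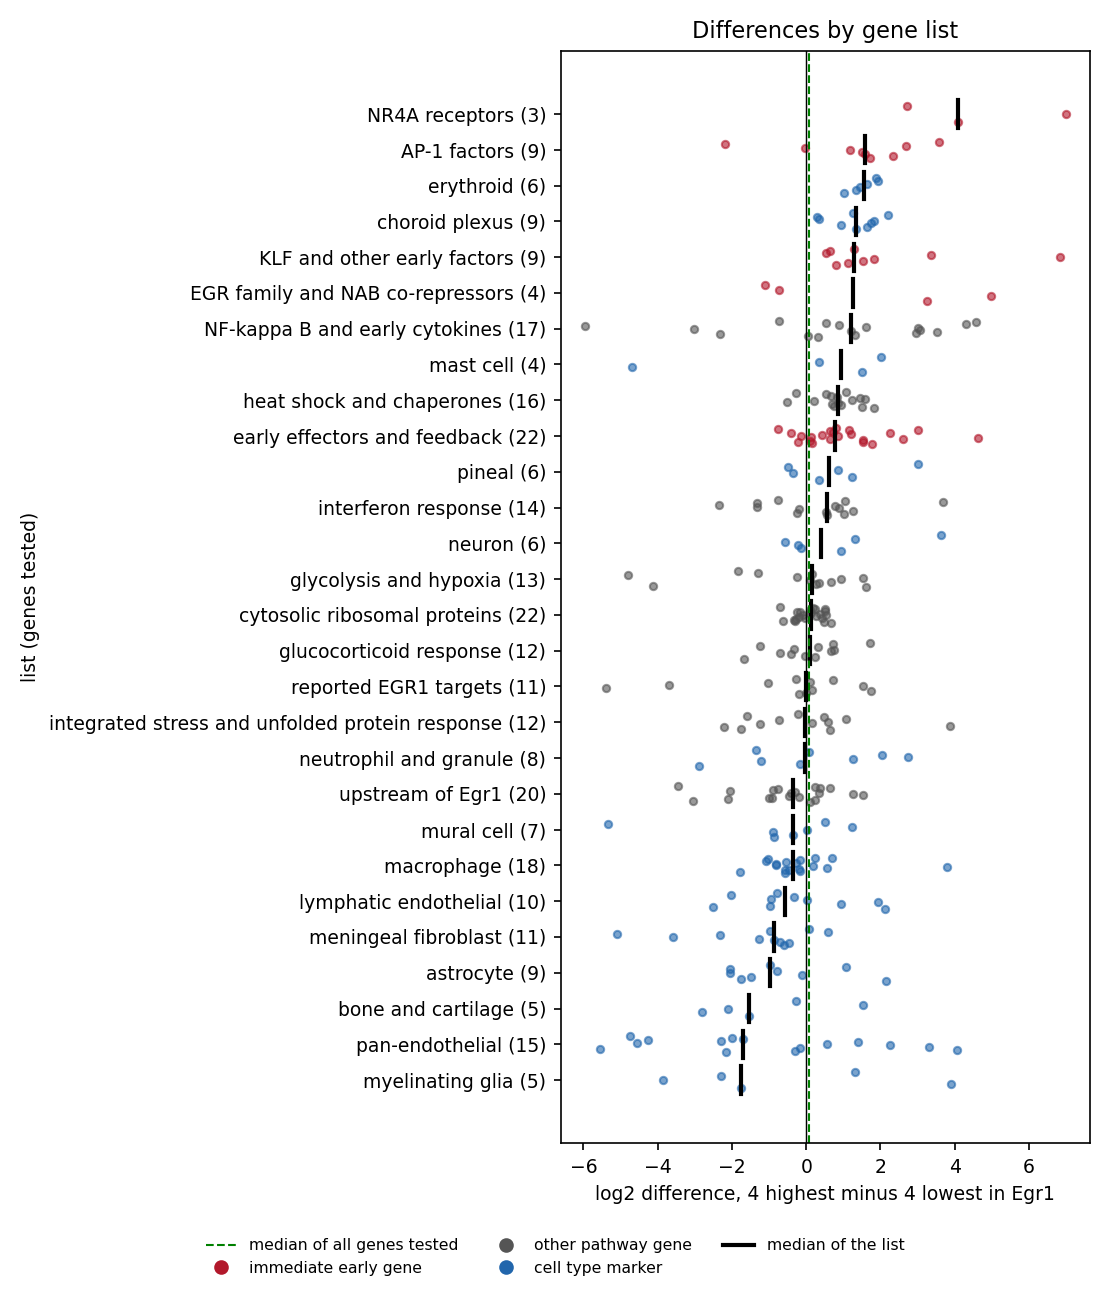
Difference in mean log2 value, 4 highest minus 4 lowest in Egr1 (horizontal axis), for each tested gene (points) of the lists (vertical axis, number of tested genes in brackets), ordered by list median (black bars). NR4A receptors (median 4.08) and AP-1 factors (1.58) lie at the top with erythroid and choroid plexus markers, and pan-endothelial markers (-1.71) lie near the bottom; the dashed line is the median of all genes, 0.07.

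Within the AD titles the early genes leaned the same way, but these contrasts reuse libraries of the main comparison and are no separate check of it. In AD_B6, with 2 libraries in each class, 34 of 47 were higher (median 0.83), beside 6425 of 11954 for all genes (median 0.11). In AD_TG, with 2 highest and 1 lowest library, 36 of 47 were higher (median 1.22), beside 5268 of 11954 (median -0.18). Heat shock genes were higher for 14 of 16 in AD_B6 and 13 of 16 in AD_TG. Choroid plexus markers were higher for 9 of 9 in AD_B6 (median 2.44) and for 3 of 9 in AD_TG (median -0.06). Ttr differed by 2.54 in AD_B6 and by 0.07 in AD_TG, while Jun differed by 1.37 and 1.23 and Fosb by 2.03 and 2.63. A limma test of the difference between these contrasts called 0 of 11954 genes (lowest adjusted p = 0.996, 360 genes at an unadjusted p below 0.05), but it had 3 residual degrees of freedom and 1 AD_TG library in the lowest class, so this count does not show that the contrasts were alike. SJL_B6 had no library among the highest, so no value could be given within it.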

How the data were processed

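RNA of 12 mouse meningeal libraries was sequenced after Lexogen QuantSeq preparation from 500 ng of total RNA, per the labels' protocols. The deposited files hold log2 values per gene symbol, made by the authors; their scaling and pseudocount are not given in the sources used here. Bowtie2, bedtools and the human build hg19 are named in the submitters' processing notes, without versions, although the symbols are those of mouse genes; strand use is not given. Each file had 23282 entries for 23238 symbols, and 44 repeated entries were left out. Linear values were taken as 2 to the power of the deposited log2 value minus 1. Steps between low linear values gave the worth of 1 read and depths of 4013910 to 9315690 reads. Because the files hold log2 values and not counts, limma 3.58.1 (R 4.3.3, trended moderation, 3 classes of 4 libraries) was used in place of a count test, on the 11954 genes that reached a linear value of 10 in 4 or more libraries, with Benjamini-Hochberg adjustment and a threshold of 0.05, and was tested on simulated data.

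The libraries were selected on Egr1, so Egr1 was left out of the table. The members and the gene lists were chosen with earlier results of these data known, and the lists are described by counts and medians without a test. Named genes were a set of classical early and heat shock genes, the 8 genes of lowest unadjusted p in each direction whose mean log2 was 5 or more, and the 8 with the highest correlation with Egr1; members of the lists named as examples were chosen after their values were seen. Library measures were compared by exact permutation tests. The precision is limited by 4 libraries per class. 24 alternative fits were run. Same-numbered libraries of different title groups correlated at -0.02 to 0.07 in their deviations from the group means, and 4 of 12 were closest to their own number, so the numbers were not treated as pairs.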

Additional observations from a re-analysis of the deposited data

Results flagged for a closer look

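The 93 sets of 4 libraries were each tested named gene and Egr1 in the highest and lowest class, and Egr1 in the 3 title groups. Of these sets, 8 held a library whose gap to its nearest neighbour exceeded the 95% Dixon limit for 4 samples. The gap was taken as a share of the range of the set. By chance alone, about 1 in 20 sets would be flagged. In the lowest class, Egr2 was at 5.27 in AD_B6_1 and Egr3 at 5.79 in AD_TG_1, with the other 3 libraries below 1 read, and Nr4a1 was at 1.14 in SJL_B6_1, far below the other 3. In the highest class, AD_B6_4 stood below the others for Egr3 (3.35) and Klf6 (9.80). Zfp36 stood above the others in AD_TG_2 (9.545) and Mcf2l in AD_TG_4 (12.05). Gatad2b was at 0.031 in AD_B6_4 and at 0 in the other 3, which is a difference of less than 1 read.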

How the results depend on the processing

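Of 44 named genes tested, 32 kept their sign in all 24 alternatives and 12 did not. No gene passed in either direction except as follows. With the replicate block, 272 genes were called higher (lowest adjusted p = 8.13e-06); replicate number 1 holds lowest libraries only, so in that fit the low class rests on AD_B6_3, the library with the fewest genes, and the all-gene median was 0.68. The block also turned Cyr61 (-0.49), Ier2 (-2.05), Il1b (-0.26), Jund (1.06), Klf2 (-3.80), Klf4 (-1.20) and Nab2 (2.34), and left 6 of 9 KLF and other early factors higher. Lower calls numbered 3 with Egr1 as a continuous predictor and 2 (Il1rap, Itgb3bp) without the moderation trend. Ranking after centring moved the early gene median from 1.2 to 0.26 and turned Dusp6 (-0.29), Nfkbia (-0.48), Zfp36 (-0.05) and the difference in linear total (-266758). With 3 against 3 libraries, Jund (0.14), Klf2 (-0.93), Nfkbia (-0.11) and linear total (-74926.7) turned, the last also with 6 against 6 (-26171.7). The continuous predictor turned Dusp6 (-0.19), Jund (0.14), Nab2 (0.0313) and Nfkbia (-0.19), and the title group covariate Jund (0.11). Of the fits chosen after seeing the data, the 8 AD-titled libraries turned Dusp6 (-0.0014), Jund (0.24) and Nab1 (0.11), and leaving out AD_TG_2 and AD_B6_2 turned Ier3 (-0.0275), Klf2 (-0.60) and Nab1 (1.07). Leaving out 1 library at a time moved signs for Dusp6 (-0.12 to 0.45), Jund (-0.34 to 0.23), Klf2 (-1.21 to 1.79), Nab1 (-1.68 to 0.34), Nab2 (-2.14 to 1.12), Nfkbia (-0.11 to 0.63), genes with reads (-1018 to 138) and linear total (-166062 to 385884). The causes were not tested.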
